A study of Quercus robur with 6 samples.

Results

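miR396 sites are the positions at which transcripts of pedunculate oak (Quercus robur) were called as sliced under the guidance of the microRNA (miRNA) deposited as qrb-miR396. Every entry with this miRNA name was taken from the target tables of the 6 degradome libraries, which gave 26 calls at 5 sites on 5 transcripts. All miRNAs together had 231 calls at 89 sites on 85 transcripts, under 27 miRNA names. A call is a miRNA, a transcript and a slice position that passed the p-value limit of 0.05 set by the authors in a library. The names GRF4 for Qrob_T0026800.2 and GRF10 for Qrob_T0769850.2, which mark them as growth-regulating factors (GRF), come from the study. Qrob_T0088850.2, Qrob_T0415350.2 and Qrob_T0283280.2 carry no name in the sources used here.

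In degradome sequencing the 5′ ends of RNA fragments without a cap are read, so a transcript that has been sliced gives reads that start at the slice position. The samples were roots of wild-type seedlings, with 3 libraries from the control condition (optimal watering) and 3 from drought stress, all after 8 weeks of acclimatisation. Drought lasted 4 weeks, with soil moisture lowered to 25% of the control level. Each library combined taproot and lateral root material from pooled root tips, and the sample titles did not tell container-grown from rhizotron-sown seedlings, so neither the root type nor the cultivation method could be separated. The libraries are labelled as biological replicates. The tables list miRNA calls and no transcript levels, so root marker genes could not be checked.

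miR396 is a conserved plant miRNA, and its best known targets are the mRNAs of the GRF transcription factors. GRF proteins act together with the GRF-interacting factor coactivators and promote cell proliferation in growing organs. In Arabidopsis, miR396 limits GRF levels in leaves and in the root tip, and its GRF target site is known to hold an extra base that has no partner in the miRNA. Plant miRNAs guide an Argonaute protein to cut within the paired stretch, which leaves the downstream fragment that the degradome reads.

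The tables held 2 different miRNA sequences under the name qrb-miR396. They are printed from 5′ to 3′, with the seed (bases 2 to 8) in capitals, because the sites fell into a set for each of them.
miR396 sequence 1: uUCCACGGcuuucuugaacug
miR396 sequence 2: gCUCAAGAaagcugugggaga
The seeds differed. Sequence 1 made 24 of the 26 calls, at 4 sites, and sequence 2 made the other 2 calls, both at the site on Qrob_T0283280.2. Laid against each other in opposite directions over 19 bases, the 2 sequences formed 16 Watson-Crick pairs and 2 G:U pairs. The tables do not say which arm of a hairpin either came from. More than 1 sequence under a name occurred for 7 of the 27 miRNA names.

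The 5 target sites are printed because they show which transcripts carried the same letters. Capitals mark bases inside the duplex that paired with no miRNA base.
Qrob_T0026800.2 (GRF4), bases 626 to 647: ccguucaagaaagccUguggaa
Qrob_T0088850.2, bases 1204 to 1225: ccguucaagaaagccUguggaa
Qrob_T0415350.2, bases 858 to 879: gcguucaagaaagccUguggaa
Qrob_T0769850.2 (GRF10), bases 516 to 537: gcguucaagaaagcUuguggaa
Qrob_T0283280.2, bases 345 to 365: gugcccacaguuuuuGAgagc
Positions are those on the transcripts of the PM1N assembly, and no place in the genome or in the coding sequence is given because no annotation of that assembly was used here. The sites on GRF4 and Qrob_T0088850.2 were identical over all 22 bases. Counted from 1 at the 5′ end of the site and read from the GRF4 site, Qrob_T0415350.2 differed by C1G alone. GRF10 differed by C1G and C15U. The site on Qrob_T0283280.2 belonged to sequence 2 and had 21 bases.

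The duplexes of the 4 sites of sequence 1 shared a shape. Each had 19 paired miRNA bases, miRNA positions 20 and 21 without a partner, and an extra target base that bulged out of the duplex. On GRF4, Qrob_T0088850.2 and Qrob_T0415350.2 the extra base was base 16 of the site, between the partners of miRNA positions 6 and 7 and 4 bases from the slice. All 19 pairs of these duplexes were Watson-Crick pairs. The GRF10 duplex had 18 Watson-Crick pairs and a G:U pair at miRNA position 7, with the extra base printed at site base 15, between miRNA positions 7 and 8. Site bases 15 and 16 of GRF10 are the same base, so by its letters the extra base could equally be placed at 16, between miRNA positions 6 and 7 as in the other duplexes. The shift in the printed shape is therefore no difference between the sites, while the G:U pair is.

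The duplex on Qrob_T0283280.2 was of another kind. It had 16 paired miRNA bases, of which 14 were Watson-Crick pairs and 2 were G:U pairs, at miRNA positions 7 and 11. Site bases 16 and 17 faced miRNA positions 5 and 6 without pairing, and positions 19 to 21 were unpaired as well. It had no extra target base. In all 5 duplexes the slice position lay opposite miRNA position 10, which also held for 82 of the 84 sites of other miRNAs.

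**Figure D1:**
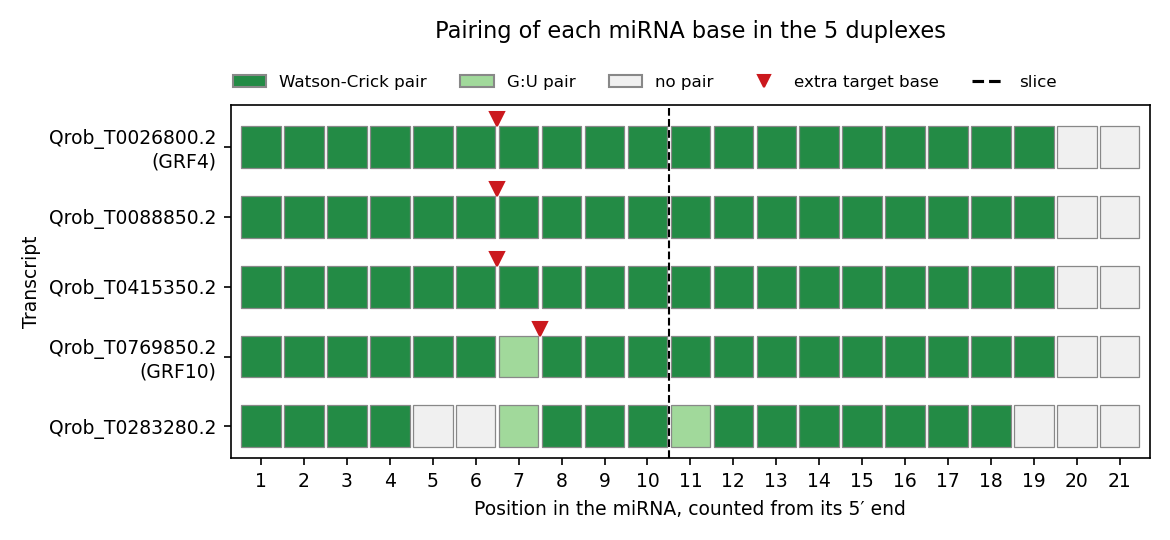
State of each of the 21 miRNA positions (horizontal axis, counted from the 5′ end) in the 5 duplexes (rows), with dark green for Watson-Crick pairs, light green for G:U pairs, grey for no pair, a red mark for an extra target base as the tables print it and a dashed line for the slice. The upper 4 duplexes pair from position 1 to position 19, and Qrob_T0283280.2 has a gap at positions 5 and 6.

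The Allen score deposited with each call adds up penalties for mispaired bases, and a perfect match has 0. The MFE ratio divides the free energy of the duplex by that of the miRNA with a perfect partner, and its best value is 1. GRF4, Qrob_T0088850.2 and Qrob_T0415350.2 had an Allen score of 4, GRF10 had 5 and Qrob_T0283280.2 had 9. The MFE ratio was 0.839 for both Qrob_T0088850.2 and Qrob_T0415350.2 and 0.833 for GRF4. It was 0.773 for GRF10 and 0.678 for Qrob_T0283280.2. The duplex energies behind these ratios were −30.7 kcal/mol for Qrob_T0088850.2 and Qrob_T0415350.2, −30.5 kcal/mol for GRF4 and −28.3 kcal/mol for GRF10, against −36.6 kcal/mol for a perfect partner of sequence 1. The duplex on Qrob_T0283280.2 had −27.2 kcal/mol, against −40.1 kcal/mol for a perfect partner of sequence 2. GRF4 and Qrob_T0088850.2 thus differed slightly in energy although their sites were the same, and the cause was not tested.

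Among the 16 pairs of a miRNA and a site called in every library, the 4 of miR396 had Allen scores from 4 to 5 and MFE ratios from 0.773 to 0.839, with a median of 0.836. The 12 pairs of other miRNAs had Allen scores from 1 to 5 with a median of 2.75, and MFE ratios from 0.797 to 1 with a median of 0.905. An extra target base was present in 4 of these 4 miR396 duplexes and in 0 of the 12 others. Over all sites it was present in 4 of 5 miR396 duplexes and in 11 of the 84 others (13.1%). These values describe the alignments, which do not change between libraries, and no test was made on them.

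**Figure D2:**
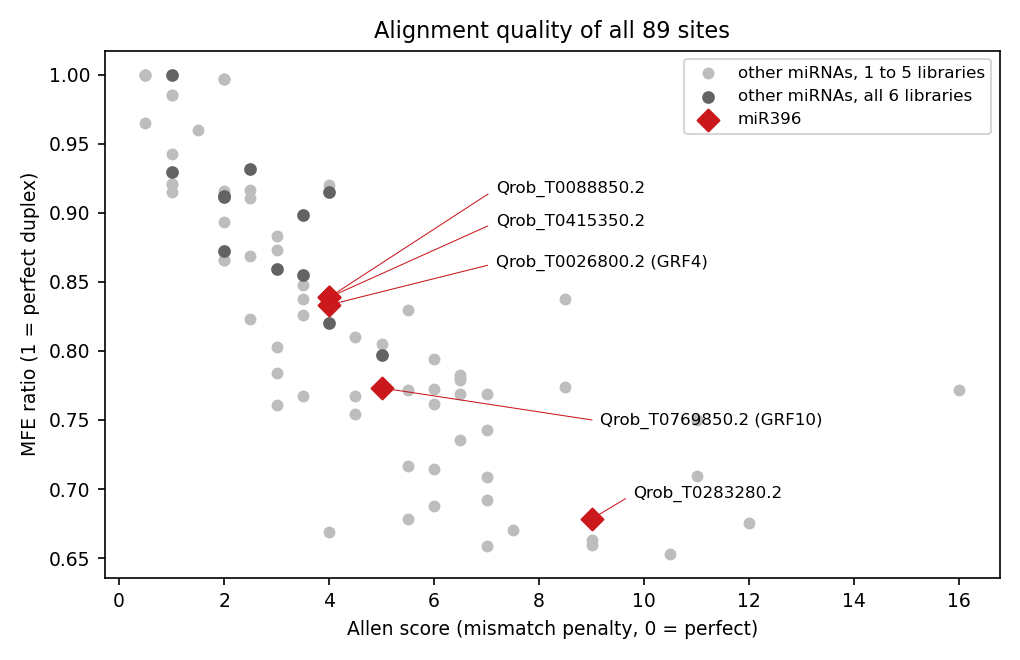
Allen score (horizontal axis) against MFE ratio (vertical axis) of the 89 sites, with a point for each site, the 5 miR396 sites as red diamonds, and other sites in dark grey where they were called in all 6 libraries and in light grey otherwise. The 4 sites of sequence 1 lie at Allen scores of 4 and 5, and Qrob_T0283280.2 lies at 9 with an MFE ratio of 0.678.

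miR396 was called at 5 sites in control replicates 1 and 3, at 4 in control replicate 2 and at 4 in each drought library. The sites on GRF4, GRF10, Qrob_T0415350.2 and Qrob_T0088850.2 were called in all 6 libraries, and Qrob_T0283280.2 alone accounts for the difference. The mean was 4.67 ± 0.577 sites in control and 4 ± 0 in drought (SD, n = 3 each), a difference of −0.667 (exact permutation test, two-sided p = 0.4, adjusted p = 1 over 27 miRNA names). With 3 libraries against 3 the smallest p that this test can give is 0.1. Over all miRNAs the libraries held between 33 and 45 sites. Of the 84 sites of other miRNAs 12 (14.3%) were called in every library and 42 in only 1, against 4 and 0 of the 5 miR396 sites.

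CleaveLand4 puts the slice position of each call in a category. In category 0 it holds more than 1 read and is the single maximum of its transcript, and category 1 means that another position is as high. In category 2 it lies below the maximum but above the average of the transcript, in category 3 at or below the average, and in category 4 it holds 1 read. Of the 26 miR396 calls 19 (73.1%) were in category 0, 4 in category 1, 3 in category 2 and 0 in categories 3 and 4. Of the 205 calls of other miRNAs 89 (43.4%) were in category 0 and 25, 50, 19 and 22 in categories 1 to 4. A site counts once for each library that called it, so calls are not independent and the 2 shares were not tested. Of the 5 miR396 sites 4 were called in every library, while 42 of the 84 other sites were called in only 1. The p-value limit also bears on these shares, as described below for category 2. Read counts are not part of the tables, which leaves the depth unknown and gives no call a counting error. A missing call says only that the pair did not pass the limit.

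The slice positions of 3 targets were the highest point of their transcript in every library, watered or not. On GRF4 (slice position 637), on Qrob_T0415350.2 (869) and on GRF10 (527) miR396 was in category 0 in 6 of 6 libraries. The category therefore did not differ between conditions for any of them. In all, 8 of the 16 pairs called in every library kept category 0 throughout, and these were 3 of the 8.

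**Figure D3:**
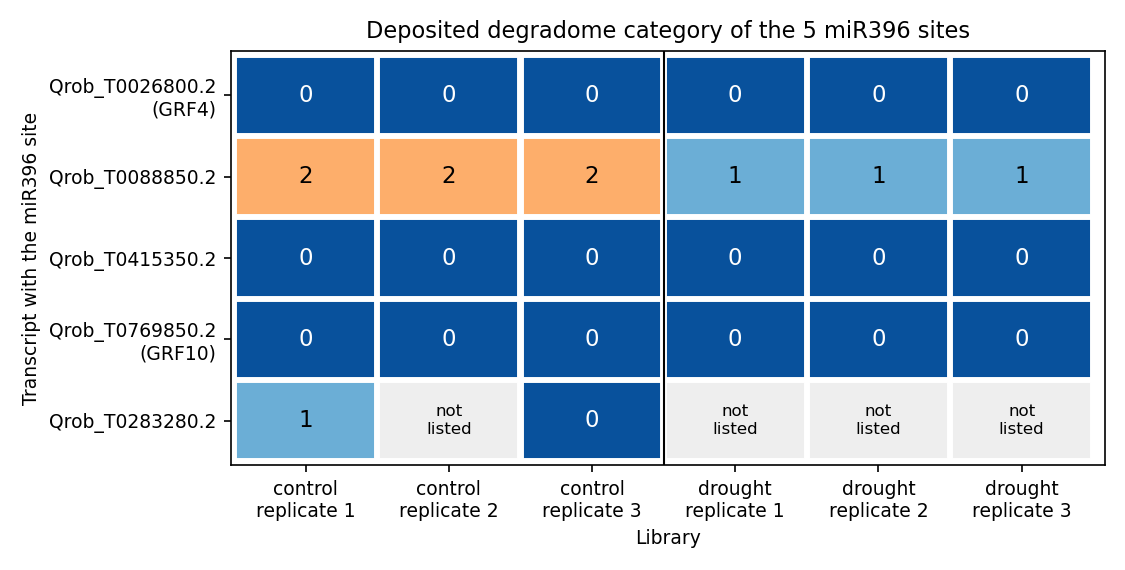
Deposited degradome category (number and colour, where 0 is the single maximum of the transcript) of the 5 miR396 sites (rows) in the 3 control and 3 drought libraries (columns), with grey for a site that was not listed. The rows of GRF4, Qrob_T0415350.2 and GRF10 hold 0 throughout, and Qrob_T0088850.2 holds 2 in the control and 1 in the drought libraries.

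The p-value deposited with a call gives the chance of meeting a position of its category at the predicted slice of this or any better ranked alignment. On GRF4 it was 0.00165, 0.00173 and 0.00165 in the control libraries (given from here on in the order of replicates 1, 2 and 3). In the drought libraries it was 0.00153, 0.00167 and 0.00177. The control values lay within the range of the drought values. The mean log10 p was −2.78 ± 0.0120 in control and −2.78 ± 0.0328 in drought (SD, n = 3 each), a difference of −0.00599 (exact permutation test, two-sided p = 0.9, adjusted p = 0.9 over 16 pairs).

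On Qrob_T0415350.2, whose site differs from that of GRF4 by C1G, the control libraries had p-values of 0.000661, 0.00138 and 0.00132 and the drought libraries 0.000916, 0.00134 and 0.00142. Control replicate 1 and drought replicate 1 were the lowest of their groups, and the groups overlapped. The difference in mean log10 p was 0.0527 (exact permutation test, two-sided p = 0.6, adjusted p = 0.9).

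On GRF10 the control libraries had p-values of 0.00462, 0.00587 and 0.00461 and the drought libraries 0.00487, 0.00533 and 0.00531. The drought libraries lay inside the range of the control libraries. The difference in mean log10 p was 0.0145 (exact permutation test, two-sided p = 0.8, adjusted p = 0.9). Each GRF10 value was higher than the GRF4 value of the same library.

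Qrob_T0088850.2, with the same site as GRF4, was the miR396 target whose category was not the same in control and drought, a difference that did not pass the test. Slice position 1215 was in category 2 in all 3 control libraries and in category 1 in all 3 drought libraries. It was thus below the maximum of its transcript in control and level with the maximum in drought, and in no library was it the single maximum. The groups did not overlap, which held for 1 of the 16 pairs called in every library (6.25%), this pair itself. Of the 16 pairs, 9 kept 1 category throughout and so could not separate the groups, and 7 changed category. The difference of −1 category was as extreme as 3 libraries against 3 allow (exact permutation test, two-sided p = 0.1, adjusted p = 1 over 16 pairs), so it did not pass the threshold. Over the 16 pairs the mean category was lower in drought for 4, higher for 1 and the same for 11.

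For this call the control libraries had p-values of 0.0403, 0.0424 and 0.0398 and the drought libraries 0.00205, 0.000957 and 0.00140. Every control value lay just under the limit of 0.05, and the highest drought value lay far below the lowest control value. The geometric mean was 0.0408 in control and 0.00140 in drought. The mean log10 p was −1.39 ± 0.0142 in control and −2.85 ± 0.165 in drought (SD, n = 3 each), a difference of −1.47 (exact permutation test, two-sided p = 0.1, adjusted p = 0.8). This pair was the only 1 of the 16 without overlap (6.25%), and the median difference over the 16 pairs was −0.00570. The p-value is set by the category and the alignment rank, so this restates the category difference and is not a second separation. No pair of any miRNA reached an unadjusted p under 0.05 in either comparison, as none could with 6 libraries.

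**Figure D4:**
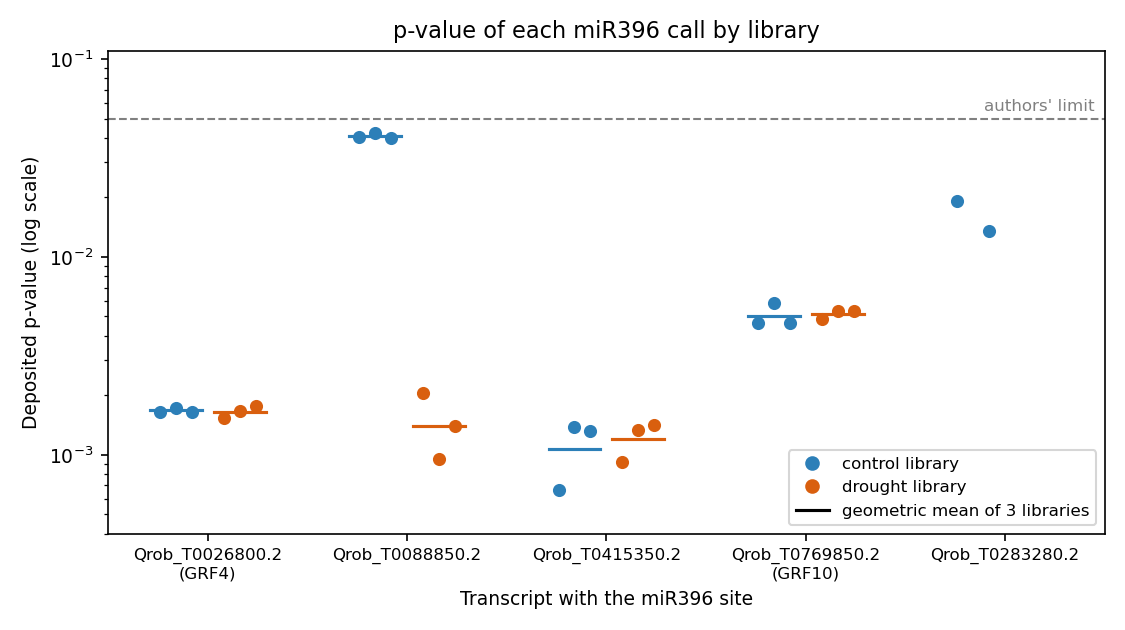
Deposited p-value (vertical axis, log scale) of each miR396 call in the control (blue) and drought (orange) libraries, with a point for each library, a bar for the geometric mean of 3 libraries and a dashed line at the limit of 0.05. The control points of Qrob_T0088850.2 lie at 0.0398 to 0.0424 and its drought points at 0.000957 to 0.00205, while the groups of GRF4, Qrob_T0415350.2 and GRF10 overlap.

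Drought replicate 1 was analysed by the authors on the same day as the 3 control libraries and drought replicates 2 and 3 on another day, per the file headers. Within the first day the category of Qrob_T0088850.2 was 2 in the 3 control libraries and 1 in the drought library, with a p-value of 0.00205 against 0.0398 to 0.0424. The category compares positions within a transcript. Without the read counts, more reads at the miR396 position could not be told apart from fewer reads elsewhere on Qrob_T0088850.2, and in pooled root tips a change in the number of cells that hold the transcript could not be told apart from a change per cell.

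Few pairs were in category 1 in more than 1 library. Many could not be, since 42 of the 84 sites of other miRNAs were called in only 1 library. Of all miRNAs, 25 pairs were ever in category 1, in 29 calls, and 22 of the pairs were in it in 1 library, 2 in 2 libraries and 1 in 3. The pair in 3 libraries was miR396 with Qrob_T0088850.2, which is the pair described above.

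Another miRNA was called on Qrob_T0088850.2 in drought replicate 1. miR390, best known for starting the production of trans-acting small RNAs from TAS3 transcripts in plants, was called at slice position 964 (site 950 to 973), which is 251 bases upstream of the miR396 position. The call was in category 1, with a p-value of 0.00154, and the alignment had Allen score 4.5 and MFE ratio 0.810. By the definition of category 1, both positions held the maximum of the transcript in this library. The other drought libraries listed no second call on this transcript, and no other miR396 target had a call of another miRNA.

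The p-value joins the category with the rank of the alignment, and the rank could be worked out from it. In a library and category, −ln(1 − p) is a whole multiple of a step, the step gives the share of transcript positions in the category (the category density), and the multiple is the rank, with 1 for the best alignment. The largest step that fits was used, so ranks that all shared a divisor would come out too low and the density too high. All miR396 ranks came out whole, with a largest deviation of 4.68e-12. GRF4 had rank 5 in 6 of 6 libraries. Qrob_T0415350.2 had ranks 2, 4 and 4 in control and 3, 4 and 4 in drought, and GRF10 had 14, 17 and 14 in control and 16, 16 and 15 in drought. Qrob_T0088850.2 had rank 3 in each control library and ranks 4, 2 and 3 in drought replicates 1, 2 and 3, of which the rank in drought replicate 2 rests on only 3 pairs in category 1. Qrob_T0088850.2 and Qrob_T0415350.2 share an MFE ratio of 0.839, and they had the same rank in 0 of the 6 libraries. The ranks of GRF10 did not separate the conditions.

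**Figure D5:**
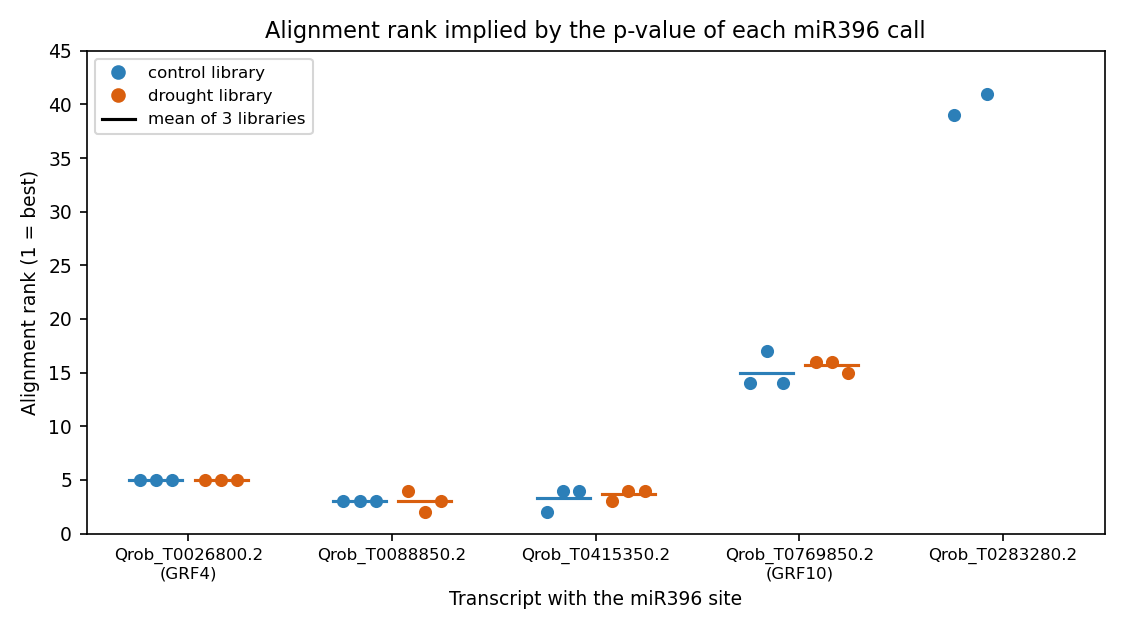
Rank of the alignment implied by each p-value (vertical axis, 1 is the best) for the miR396 calls in the control (blue) and drought (orange) libraries, with a point for each library and a bar for the mean of 3 libraries. GRF4 stays at 5, Qrob_T0088850.2 and Qrob_T0415350.2 lie between 2 and 4, GRF10 lies between 14 and 17 and Qrob_T0283280.2 lies at 39 and 41.

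With these ranks, the size of each p-value could be traced to the category. The density was 0.0305 to 0.0355% of positions for category 0, 0.0455 to 0.0512% for category 1 and 1.26 to 1.92% for category 2. For Qrob_T0088850.2 at rank 3, category 1 would give a p-value of 0.00136 to 0.00154 over the 6 libraries and category 2 a p-value of 0.0375 to 0.0566. With the rank held at its lowest value in every library the difference in mean log10 p was −1.45, close to the −1.47 of the deposited values. In drought replicate 3 a call in category 2 at its rank of 3 would have had a p-value of 0.0566 and would not have been listed. At rank 4 a call in category 2 would have had a p-value of 0.0528 to 0.0561 in the control libraries, so there the target was 1 rank away from being unlisted.

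At their ranks, GRF4 and GRF10 could be listed in category 0 or 1 but not in category 2. The densities of categories 3 and 4 were not worked out, so calls in them are not covered here. GRF4 at rank 5 would have a p-value of 0.0616 to 0.0925 in category 2, above the limit in all 6 libraries. GRF10 at ranks 14 to 17 would have 0.163 to 0.281. Calls of GRF4 and GRF10 in category 2 would therefore not have been listed, and their category 0 in every library is to be read with that limit. For Qrob_T0415350.2 the limit did not hold in every library. A call of it in category 2 would have had a p-value of 0.0271 at its rank of 2 in control replicate 1 and 0.0375 at its rank of 3 in drought replicate 1, both under 0.05. At its rank of 4 in the other libraries it would have had 0.0528 to 0.0748, above 0.05.

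Qrob_T0283280.2, the only target of sequence 2, was called in control replicates 1 and 3 and in no drought library. In control replicate 1 slice position 356 was in category 1 with a p-value of 0.0192 and rank 39. In control replicate 3 it was in category 0 with a p-value of 0.0134 and rank 41. Presence in 2 of 3 control and 0 of 3 drought libraries did not pass the threshold (two-sided Fisher's exact test, p = 0.4, adjusted p = 1 over 89 sites). Of all 89 sites, 5 (5.62%) were called in at least 2 control libraries and no drought library, and 4 (4.49%) were called in 3 libraries of a condition and 0 of the other, none of them a miR396 site. In category 2 at these ranks the p-value would be 0.391 to 0.549, so a call in category 2 would have gone unlisted in every library. Categories 3 and 4 were not worked out.

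Identical sites did not give identical calls. GRF4 and Qrob_T0088850.2 share all 22 bases, the miRNA, the extra base and the Allen score, and in 6 of 6 libraries GRF4 was in category 0 while Qrob_T0088850.2 was in category 1 or 2. Qrob_T0415350.2 and GRF10, with 1 and 2 bases changed, had the same category as GRF4 in 6 of 6 libraries. The limit partly set this agreement, since at their ranks calls of GRF4 and GRF10 in category 2 would not have been listed. The same held for Qrob_T0415350.2 where its rank was 4. The different categories of GRF4 and Qrob_T0088850.2 did not follow the site sequence, which they share. For the sites of sequence 1 in category 0, the p-values within a library followed the MFE ratio, which the use of the rank fixes. Qrob_T0415350.2 (MFE ratio 0.839) was lowest, GRF4 (0.833) next and GRF10 (0.773) highest in 6 of 6 libraries. GRF4 and Qrob_T0415350.2 had the same Allen score and 19 Watson-Crick pairs each, so their order marks no difference in the pairs counted. By its letters site base 1 was complementary to miRNA position 21 on GRF4 and not on Qrob_T0415350.2. Both printed duplexes leave that position unpaired. Whether reads of GRF4 and Qrob_T0088850.2 could be assigned to the wrong transcript was not tested, because the sequence beyond the sites was not used here.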

How the data were processed

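Degradome libraries of control (n = 3) and drought-stressed (n = 3) oak roots were compared. CleaveLand4 4.5 was run by the authors on each library, per the file headers, against the longest PM1N transcripts, with a p-value limit of 0.05 and categories 0 to 4. The deposited p-values, MFE ratios and Allen scores were used as given, with the degradome category, positions and duplex strings. The p-values are not adjusted for the miRNAs searched. Each table holds only pairs that passed the limit.

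Groups were taken from the sample labels. Category, log10 p and sites per library were compared by two-sided exact permutation tests (20 assignments) and presence by Fisher's exact test, with Benjamini-Hochberg adjustment over all pairs called in every library (16), miRNA names (27) or sites (89). Ranks were read from the largest step of −ln(1 − p), with a tolerance of 1e-05 for each unit of the divisor. On simulated data this procedure gave back the ranks up to a common divisor. Every qrb-miR396 site was named. Of other miRNAs, those sharing a miR396 target transcript and pairs in every library with non-overlapping categories were to be named. The members and rules were chosen with earlier results of these data known. Tests used scipy 1.17.1 and numpy 2.4.6, tables pandas 2.3.3, plots matplotlib 3.10.9, all under Python 3.11.15.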

Additional observations from a re-analysis of the deposited data

How the results depend on the processing

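Of 112 alternatives 8 turned the sign of a difference. None could pass 0.05, since with these few libraries an exact p cannot go below 0.1, so the side of the threshold says nothing about stability, and a category difference of 0 has no direction to keep. With a p-value limit of 0.01 the difference in miR396 sites per library (drought minus control) turned from −0.667 to 1 (exact permutation test, p = 0.1), because the control calls of Qrob_T0088850.2 and both calls of Qrob_T0283280.2 lay above that limit. The presence difference of Qrob_T0088850.2 became 100% of libraries and that of Qrob_T0283280.2 became 0%, and no p-value difference could be given for Qrob_T0088850.2. With Allen scores of at most 4, the difference in sites and the presence difference of Qrob_T0283280.2 were both 0, since its score is 9, and GRF10 gave no value. Merging the identical sites of GRF4 and Qrob_T0088850.2, with the lowest category and p-value kept, brought the category difference to 0 and the log10 p difference from −1.47 to −0.121, since GRF4 was in category 0 throughout. At a common rank the log10 p difference was −0.00599 for Qrob_T0415350.2 and −0.00598 for GRF10, with the sign turned.

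Leaving out each library in turn gave −1 to −0.5 sites per library, and −100% to −50% for the presence of Qrob_T0283280.2. It gave −1 throughout for the category of Qrob_T0088850.2 and −1.55 to −1.38 for its log10 p. The log10 p differences of GRF4 (−0.0212 to 0.0114), Qrob_T0415350.2 (−0.0509 to 0.112) and GRF10 (−0.00313 to 0.0495) included both signs.

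Over the 16 pairs, the correlations of log10 p deviations between same-numbered libraries were 0.0735, 0.249 and −0.0569. Control replicates 1 and 2 correlated best with the drought library of their own number, and control replicate 3 with drought replicate 2. So few pairs could not settle whether the replicate numbers pair the libraries. With the replicate number as a block the smallest p is 0.25, and it was 0.25 for the category difference of −1 and the log10 p difference of −1.47 of Qrob_T0088850.2, 0.5 for the sites per library (−0.667) and 0.5 for the presence of Qrob_T0283280.2 (−66.7%). Read depth was unknown here, and its part in the category densities and ranks was not tested.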
